A study of Homo sapiens with 10 samples.

Results

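The 31 genes described here make cholesterol, take it up, move it, export it, store it or control these steps. They were listed by their place in the pathway and not by a cut-off on any value, although earlier results of these data were known when the list was made, and all 31 were found among the 58302 genes of the deposited tables. Of them, 19 encode enzymes of synthesis, from ACAT2 to DHCR7. RNA-Seq was read from 10 libraries of 3 human lines labelled as hepatocellular carcinoma, with 1 library per condition. SK-hep1 gave 5 libraries, a mock control and cells overexpressing PSPC1 (a paraspeckle protein) or its mutant PSPC1-Y523F (phenylalanine in place of a tyrosine), each alone or together with the tyrosine kinase PTK6, written PSPC1/PTK6 and PSPC1-Y523F/PTK6. Mahlavu gave 3, a mock control, PSPC1-CT131, the C-terminal piece of PSPC1, and Mut-NLS-CT131, which carries a mutated nuclear localization sequence. The 2 Huh-7 libraries were untreated cells and cells given 10 ng/ml HGF, a growth factor, for 48 h. The treatment text of both Huh-7 samples names HGF, and the control was taken as untreated from its title and genotype label. All cells were kept in medium with serum, which supplies lipoprotein cholesterol, and every construct was overexpressed from a plasmid.

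The libraries held 15245935 to 24278662 reads on genes. With 1 library per condition no test was possible, and a difference between libraries covers both the construct and any difference between cultures. PSPC1 itself had 0 reads in the SK-hep1 mock library, 209 and 930 reads with PSPC1 alone and with PTK6, and 71 and 2539 reads with PSPC1-Y523F alone and with PTK6, so the level of PSPC1 differed widely between transfectants. PTK6 had 16.7 and 10.5 FPKM in the libraries with PTK6 and 4.09 to 5.69 FPKM in the other SK-hep1 libraries. Without a PTK6 construct, it had 8.95 FPKM in Mahlavu mock and 17.2 and 17.3 FPKM in PSPC1-CT131 and Mut-NLS-CT131. Huh-7 had 0.34 FPKM of PTK6 untreated and 0.32 FPKM with HGF. In Mahlavu, PSPC1 was lower in both transfectants than in mock, at 30.8 and 22.5 FPKM against 47.3 FPKM, and these are therefore called the libraries labelled PSPC1-CT131 and Mut-NLS-CT131. Their source labels name the C-terminal of PSPC1 and an NLS mutation of PSPC1, and the construct names used here follow the study. FPKM is the number of reads of a gene divided by its length and the total reads of the library. All 8 hepatocyte markers examined were below 1 FPKM in every SK-hep1 and Mahlavu library, and all 8 were above it in Huh-7. At most 1 of 8 endothelial markers reached 1 FPKM in the SK-hep1 and Mahlavu libraries, and 3 or 4 of 6 fibroblast or mesenchymal markers did so in each of them. In Huh-7, 1 of 8 endothelial markers reached it untreated and 2 with HGF. Both Huh-7 libraries had 4 of 6 fibroblast or mesenchymal markers at this level. Summed over these 6, they had 167 and 180 FPKM, against 37.7 to 86.7 FPKM in the SK-hep1 and Mahlavu libraries.

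Cells build cholesterol from acetyl-CoA through mevalonate and the isoprenoid farnesyl diphosphate to squalene, which is closed into lanosterol and trimmed to cholesterol. When sterols in the endoplasmic reticulum run low, SCAP carries the SREBP transcription factors to the Golgi, where they are cut and released to switch on the synthesis genes. When sterols are plentiful, the INSIG proteins hold SCAP back, and liver X receptors turn on export through ABCA1 and ABCG1. The liver is a main site of cholesterol synthesis in the body.

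RefSeq lists promoters for 27 of the 31 genes, here the 250 bases before and 50 bases after the gene start, in GRCh38.p14. A sterol regulatory element of the form TCACNCCAC, the site read by SREBP, lay on either strand in the promoter of 1 of the 27, SREBF2, and in 1.39% of all genes of the table. The shorter form CACNCCAC, which lies within the longer one and was added after the first result was seen, lay in 5, which are IDI1, SC5D, INSIG1, SREBF2 and ABCA1, and in 7.05% of all genes. The CCAAT box, bound by NF-Y, a partner of SREBP, lay in 19 of the 27 and in 13 of the 16 synthesis genes with a promoter, and in 39.7% of all genes. A GC box, GGGCGG, lay in 25 of the 27 and 48.3% of all genes, and an E-box, CACGTG, in 5 of the 27 and 8.77% of all genes. The next 5 promoters are shown because HMGCS1, IDI1, MSMO1 and INSIG1 are among the genes with the largest differences described further on, and because that of SREBF2 holds the longer element. Capitals mark CCAAT, or ATTGG where it is read on the other strand, and in IDI1, INSIG1 and SREBF2 also the element. They are HMGCS1 at chr5:43313363-43313662 and IDI1 at chr10:1048837-1049136, both on the minus strand and 1 of 2 and 1 of 3 promoters listed for the gene, MSMO1 at chr4:165327419-165327718, INSIG1 at chr7:155297628-155297927 and SREBF2 at chr22:41832855-41833154, these 3 on the plus strand.
HMGCS1: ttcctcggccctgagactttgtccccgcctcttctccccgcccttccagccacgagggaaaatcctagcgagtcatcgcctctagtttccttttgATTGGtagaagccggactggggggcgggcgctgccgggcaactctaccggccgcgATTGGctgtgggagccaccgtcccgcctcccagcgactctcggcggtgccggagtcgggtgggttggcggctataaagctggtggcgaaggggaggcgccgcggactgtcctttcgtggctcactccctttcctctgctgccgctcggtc
IDI1: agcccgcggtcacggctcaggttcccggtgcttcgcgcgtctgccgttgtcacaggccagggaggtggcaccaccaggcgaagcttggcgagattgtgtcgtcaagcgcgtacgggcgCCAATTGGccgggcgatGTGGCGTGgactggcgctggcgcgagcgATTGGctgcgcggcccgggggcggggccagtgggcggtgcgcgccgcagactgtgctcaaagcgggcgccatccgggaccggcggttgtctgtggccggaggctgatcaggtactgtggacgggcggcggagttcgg
MSMO1: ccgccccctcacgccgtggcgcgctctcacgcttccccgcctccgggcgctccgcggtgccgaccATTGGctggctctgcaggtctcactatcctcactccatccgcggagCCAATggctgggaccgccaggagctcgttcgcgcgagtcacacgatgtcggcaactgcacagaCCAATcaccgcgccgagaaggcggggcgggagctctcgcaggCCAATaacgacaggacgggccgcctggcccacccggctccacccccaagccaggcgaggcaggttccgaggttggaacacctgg
INSIG1: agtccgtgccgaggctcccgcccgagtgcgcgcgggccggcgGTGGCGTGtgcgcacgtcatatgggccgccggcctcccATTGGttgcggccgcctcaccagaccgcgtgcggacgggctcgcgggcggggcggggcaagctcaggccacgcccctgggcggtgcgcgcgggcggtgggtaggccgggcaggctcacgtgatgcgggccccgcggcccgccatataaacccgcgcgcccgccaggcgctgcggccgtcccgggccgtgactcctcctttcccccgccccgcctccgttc
SREBF2: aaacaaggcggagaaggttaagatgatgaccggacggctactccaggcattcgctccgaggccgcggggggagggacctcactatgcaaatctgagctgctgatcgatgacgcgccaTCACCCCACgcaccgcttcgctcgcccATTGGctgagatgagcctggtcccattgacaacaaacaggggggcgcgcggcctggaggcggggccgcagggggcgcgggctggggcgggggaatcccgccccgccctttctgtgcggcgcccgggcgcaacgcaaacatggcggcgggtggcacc
The MSMO1 promoter held 4 CCAAT boxes, that of IDI1 held 3, of which 2 overlap on opposite strands, that of HMGCS1 held 2, and those of INSIG1 and SREBF2 held 1 each. A match is a description of these letters, and binding was not measured here.

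The level of the pathway differed between the lines more than between the transfectants of a line. The summed FPKM of the 19 synthesis genes was 707 to 1193 in SK-hep1, 2418 to 3020 in Mahlavu and 5238 to 5493 in Huh-7, with no overlap. On quantile-normalized FPKM, 16 of the 30 genes whose mean reached 1 FPKM were higher in all Mahlavu than in all SK-hep1 libraries, against 22.7% of all genes, and 2, LBR and SCAP, were higher in all SK-hep1 libraries, against 25.7% of all genes. The deposited FPKM of LBR overlap between these lines. Huh-7 was normalized apart from the other libraries, so levels across the 3 lines are given as deposited FPKM. Libraries of a line are different transfectants and not replicates, and the line cannot be told apart from when and how its cells were grown. RNA was taken from whole cultures, so a change in the share of cells that use a gene and a change in RNA per cell cannot be told apart.

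Among the mevalonate enzymes, HMGCS1, which makes HMG-CoA, had 12.9 to 31.02 FPKM in SK-hep1, 51.1 to 160 FPKM in Mahlavu and 998 to 1169 FPKM in Huh-7. It was the most abundant of the 31 in both Huh-7 libraries. MVD, the decarboxylase that yields isopentenyl diphosphate, had 51.0 to 92.6 FPKM in SK-hep1, 519 to 554 FPKM in Mahlavu and 616 to 632 FPKM in Huh-7. The kinase PMVK, which acts just before MVD, varied less and had 30.3 to 36.7 FPKM in SK-hep1, 37.1 to 54.2 FPKM in Mahlavu and 29.4 to 30.1 FPKM in Huh-7. For 10 of the 30 genes that averaged 1 FPKM or more across the 10 libraries, the ranges lay in the order SK-hep1, Mahlavu, Huh-7 without overlap, against 7.96% of all genes. Of these, 9 are synthesis genes, namely ACAT2, HMGCS1, MVD, SQLE, MSMO1, HSD17B7, EBP, SC5D and DHCR7, and the last is the exporter ABCA1. HSD17B7 was the closest of these, with 12.6 to 25.0 FPKM in SK-hep1 and 25.7 to 42.6 FPKM in Mahlavu, and reads of up to 83 on its pseudogene copies could be split from it.

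DHCR7, the reductase that forms cholesterol from its direct precursor, had 102 to 206 FPKM in SK-hep1, 370 to 409 FPKM in Mahlavu and 855 to 875 FPKM in Huh-7. EBP, a sterol isomerase, followed with 71.9 to 113 FPKM, 200 to 280 FPKM and 634 to 642 FPKM. SC5D, a sterol desaturase, had 3.16 to 7.39 FPKM, 16.8 to 37.6 FPKM and 79.8 to 82.6 FPKM, so it was among the scarcest enzymes in SK-hep1. Both sterol reductases that share a step, TM7SF2 and LBR, differed in another way. TM7SF2 had 2.51 to 4.12 FPKM in SK-hep1, 3.03 to 4.49 FPKM in Mahlavu and 45.3 to 45.9 FPKM in Huh-7, while LBR had 44.4 to 55.5 FPKM, 40.9 to 51.0 FPKM and 129 to 139 FPKM.

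The control genes followed no common order. SREBF1, which encodes SREBP forms known for fatty acid as well as sterol genes, was the most abundant of the 31 in all SK-hep1 libraries, at 380 to 551 FPKM. It had 267 to 769 FPKM in Mahlavu and 207 FPKM in both Huh-7 libraries. SREBF2, whose product acts mainly on sterol genes, had 73.2 to 136 FPKM in SK-hep1, 142 to 168 FPKM in Mahlavu and 164 to 174 FPKM in Huh-7. INSIG1 had 32.2 to 91.5 FPKM, 177 to 318 FPKM and 193 to 208 FPKM in these lines, and INSIG2 3.90 to 7.51 FPKM, 28.5 to 43.3 FPKM and 29.8 to 31.6 FPKM. Both INSIG genes were thus higher in Mahlavu and Huh-7 than in SK-hep1, and Mahlavu and Huh-7 overlapped. SCAP had 99.999 to 136 FPKM in SK-hep1, 63.0 to 87.1 FPKM in Mahlavu and 116 to 129 FPKM in Huh-7.

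Transport and storage genes were highest in different lines. NPC1, which lets cholesterol out of lysosomes, had 40.5 to 73.5 FPKM in SK-hep1, 169 to 354 FPKM in Mahlavu and 116 to 122 FPKM in Huh-7. Its partner NPC2 had 64.4 to 84.4 FPKM, 127 to 146 FPKM and 34.6 to 41.5 FPKM, and was lowest in Huh-7. The exporter ABCA1 had 3.91 to 10.6 FPKM, 24.1 to 26.7 FPKM and 57.9 to 61.1 FPKM. ABCG1, another exporter, had at most 2 reads in any SK-hep1 and at most 6 reads in any Mahlavu library and did not pass the filter there, whereas Huh-7 had 111 reads untreated and 161 reads with HGF. SOAT1, which esterifies cholesterol for storage, had 4.72 to 6.56 FPKM in SK-hep1, 14.2 to 21.4 FPKM in Mahlavu and 16.0 to 18.0 FPKM in Huh-7. MYLIP, a ubiquitin ligase that sends lipoprotein receptors for degradation, had 2.95 to 5.72 FPKM, 11.5 to 14.4 FPKM and 9.58 to 9.82 FPKM.

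With PSPC1 in SK-hep1, most of the synthesis and control genes lay above mock. On log2 of quantile-normalized FPKM + 1, the scale of every difference that follows, the median of the 19 synthesis genes was 0.35 and that of all genes -0.03, and 16 of the 19 were above 0, the others being MVK, LBR and HSD17B7. Of the 5 control genes 4 were above 0, all but SREBF1. Of the 30 genes that passed the filter, 7 were at least 1.5-fold higher, against 9.57% of all genes, and 1 was at least 1.5-fold lower, against 8.66% of all genes. The 7 were MSMO1, INSIG1, FDFT1, SREBF2, SQLE, IDI1 and HMGCS1, and the 1 lower gene was ABCA1.

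MSMO1, the methylsterol oxidase, had 21.8 FPKM in mock, 45.7 FPKM in PSPC1, 44.7 FPKM in PSPC1/PTK6, 15.2 FPKM in PSPC1-Y523F and 42.1 FPKM in PSPC1-Y523F/PTK6. It was low in mock and PSPC1-Y523F and similar in the other 3 libraries. With PSPC1 its difference from mock was 1.04, and 0.94 to 1.12 under the other settings tried. INSIG1 had 45.8, 91.5, 86.9, 32.2 and 44.98 FPKM in the same order, high in PSPC1 and PSPC1/PTK6 only, with a difference of 0.98 for PSPC1. The deposited FPKM of INSIG1 gave a log2 ratio of 1.00 with a 95% exact binomial interval of 0.91 to 1.09, and such intervals cover counting error only. FDFT1, squalene synthase, had 124, 241, 153, 98.0 and 184 FPKM, and its difference with PSPC1 was 0.92. SREBF2 had 80.6, 136, 101, 73.2 and 99.4 FPKM, with a difference of 0.77 for PSPC1. Its paralog SREBF1 had 551, 488, 398, 491 and 380 FPKM and was highest in mock, with a difference of -0.13 for PSPC1.

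SQLE, squalene epoxidase, differed by 0.74 between PSPC1 and mock, IDI1, the isopentenyl diphosphate isomerase, by 0.70 and HMGCS1 by 0.65. HMGCS1 was below 1.5-fold with 5 added to each value instead of 1. ABCA1 had 6.78 FPKM in mock, 3.91 FPKM in PSPC1, 10.6 FPKM in PSPC1/PTK6, 6.24 FPKM in PSPC1-Y523F and 4.67 FPKM in PSPC1-Y523F/PTK6. Its difference of -0.60 with PSPC1 was within 1.5-fold with 5 added or with length and GC content taken out. The other sterol-step enzymes besides MSMO1 lay between -0.11 for LBR and 0.38 for SC5D. Among the first enzymes of the pathway, ACAT2 was at 0.08, MVK at -0.29 and PMVK at 0.007.

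PSPC1/PTK6 gave a mixed picture, with IDI1 and several transport genes above mock and the mevalonate kinase below it. Of the 30 genes, 5 were at least 1.5-fold higher than mock, against 12.4% of all genes, and 1 was lower, against 12.8% of all genes. The median of the synthesis genes was -0.09 and that of all genes -0.04, and 8 of the 19 were above 0. IDI1 had 22.1 FPKM in mock, 36.4 FPKM in PSPC1, 68.2 FPKM in PSPC1/PTK6, 22.7 FPKM in PSPC1-Y523F and 37.6 FPKM in PSPC1-Y523F/PTK6. It was highest in PSPC1/PTK6, with a difference of 1.48 from mock. MSMO1 differed by 0.90, INSIG1 by 0.86, STARD4 by 0.61 and NPC1 by 0.60. STARD4, which carries cholesterol between membranes, was at 0.35 with length and GC content taken out. MVK, mevalonate kinase, had 44.2 FPKM in mock, 35.1 FPKM in PSPC1, 25.8 FPKM in PSPC1/PTK6, 25.7 FPKM in PSPC1-Y523F and 39.2 FPKM in PSPC1-Y523F/PTK6, and its difference with PSPC1/PTK6 was -0.87. With FPKM as deposited, where all genes had a median of 0.15, 8 genes were higher and 1 was lower. TMM-scaled counts gave 4 higher and 2 lower.

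With PSPC1-Y523F, most synthesis genes lay below mock. Their median was -0.26, that of all genes -0.01, and 15 of the 19 were below 0. At the 1.5-fold limit, 0 of the 30 genes were higher, against 9.33% of all genes, and 3 were lower, against 9.33% of all genes. The 3 were HSD17B7, a sterol ketoreductase, at -0.76, MVK at -0.69 and FDPS, farnesyl diphosphate synthase, at -0.61. HSD17B7 had 23.8 FPKM in mock, 22.2 FPKM in PSPC1, 25.0 FPKM in PSPC1/PTK6, 12.6 FPKM in PSPC1-Y523F and 21.6 FPKM in PSPC1-Y523F/PTK6, so it was low in that library alone. FDPS was just past the limit and fell short of it with 5 added to each value.

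PSPC1-Y523F/PTK6 had synthesis genes above mock again. Their median was 0.48 and that of all genes -0.04, with 15 of the 19 above 0. Of the 30 genes, 5 were at least 1.5-fold higher, against 8.19% of all genes, and 0 were lower, against 7.1% of all genes. The 5 were all synthesis genes, MSMO1 at 0.97, IDI1 at 0.81, SC5D at 0.77, NSDHL at 0.66 and FDPS at 0.59. FDPS was within 1.5-fold with 5 added, with FPKM as deposited or scaled to the same sum, and with length and GC content taken out. INSIG1, by contrast with PSPC1, was at 0.05 here, and SREBF1 at -0.46.

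**Figure D1:**
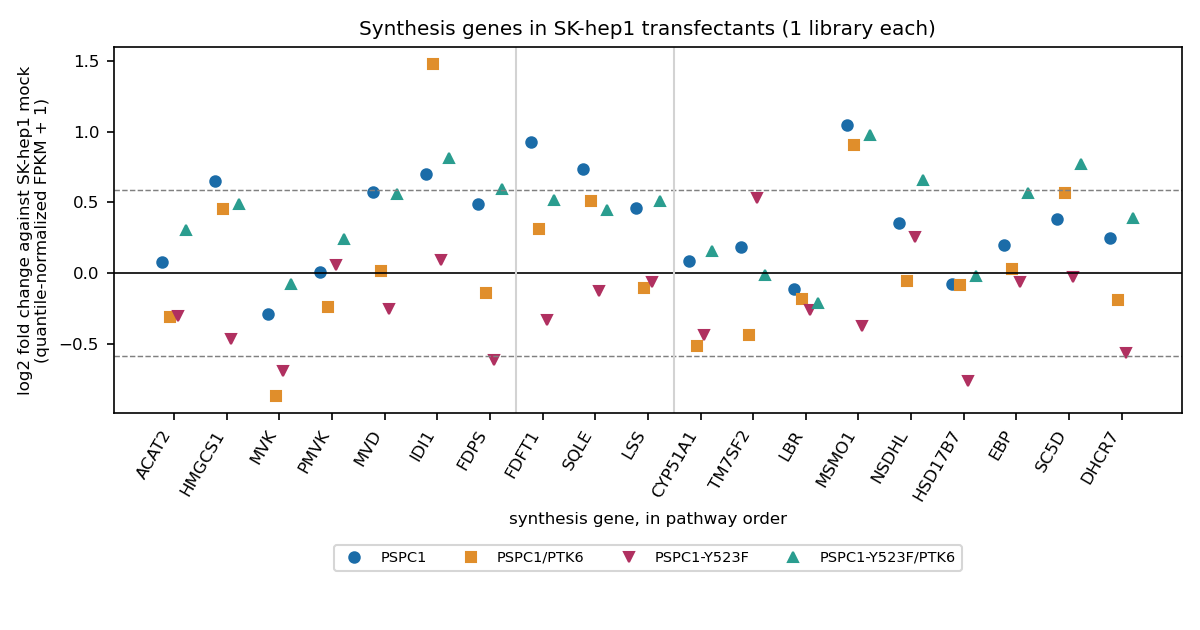
Log2 fold change against SK-hep1 mock of the 19 synthesis genes in pathway order (1 library per transfectant, colours and shapes), with dashed lines at 1.5-fold. PSPC1-Y523F lies lowest or near lowest for most genes, and IDI1 in PSPC1/PTK6 reaches 1.48.

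Among the 5 SK-hep1 libraries, PSPC1-Y523F was the lowest for 11 of the 19 synthesis genes, against 22.9% of all genes, and PSPC1/PTK6 for 7, against 28.4% of all genes. PSPC1-Y523F/PTK6 was the highest for 9, against 15.3% of all genes, and PSPC1 for 5, against 14.6% of all genes. The summed level of the 6 fibroblast or mesenchymal markers was also lowest in PSPC1-Y523F, at 37.7 FPKM, and highest in PSPC1-Y523F/PTK6, at 86.7 FPKM, with 51.2, 58.2 and 74.8 FPKM in mock, PSPC1 and PSPC1/PTK6. At most 1 of the 6 was at 0 in any of these libraries, and their part in the result was not tested. Set directly against PSPC1, PSPC1-Y523F had 11 of 30 genes at least 1.5-fold lower, against 9.23% of all genes, and 1 higher, ABCA1 at 0.60, against 8.77% of all genes. ABCA1 did not reach 1.5-fold with 5 added, with FPKM as deposited, or with length and GC content taken out. At 2-fold, 5 of 30 were lower, against 2.37% of all genes. The 5 were INSIG1 at -1.43, MSMO1 at -1.42, FDFT1 at -1.26, HMGCS1 at -1.11 and FDPS at -1.10. The other 6 were SREBF2, SQLE, MVD, DHCR7, HSD17B7 and IDI1, between -0.87 and -0.61. Of the 19 synthesis genes 17 were lower in PSPC1-Y523F than in PSPC1 under all 5 scalings compared, and PMVK and TM7SF2 were higher. Deposited FPKM of INSIG1 gave a log2 ratio of -1.51 with an interval of -1.61 to -1.41.

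Adding PTK6 went with opposite differences beside PSPC1 and beside PSPC1-Y523F, in comparisons that share no library. The libraries without PTK6 are those set against each other above, where the synthesis median was -0.52, so that difference enters here too. PSPC1-Y523F/PTK6 against PSPC1-Y523F had 13 of 30 genes at least 1.5-fold higher, all of them synthesis genes, against 10.4% of all genes, and 0 lower, against 9.28% of all genes. The median of the 19 synthesis genes was 0.62 and that of all genes -0.03. PSPC1/PTK6 against PSPC1 had 3 of 30 higher, against 8.09% of all genes, and 5 lower, against 7.34% of all genes, with a synthesis median of -0.39 and a median of all genes of -0.02. Of the 19 synthesis genes, 17 were lower with PTK6 beside PSPC1, 18 were higher with PTK6 beside PSPC1-Y523F, and 16 were both, while 19.7% of all 11931 genes compared were both.

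The largest differences of PSPC1-Y523F/PTK6 from PSPC1-Y523F were MSMO1 at 1.35 and FDPS at 1.21. FDPS had 64.9 FPKM in mock, 90.4 FPKM in PSPC1, 60.8 FPKM in PSPC1/PTK6, 40.6 FPKM in PSPC1-Y523F and 97.6 FPKM in PSPC1-Y523F/PTK6. Thus FDPS was lower with PTK6 beside PSPC1, at -0.63, and higher with PTK6 beside PSPC1-Y523F. DHCR7 had 154, 178, 129, 102 and 206 FPKM in the same order, with differences of -0.44 and 0.95. HMGCS1 had 19.8, 31.02, 30.3, 12.9 and 26.0 FPKM, with differences of -0.20 and 0.95. Near the earlier steps, MVD had differences of -0.56 and 0.81, and MVK of -0.58 and 0.61. IDI1 and SC5D were higher in both comparisons, IDI1 at 0.78 and 0.72 and SC5D at 0.19 and 0.80, and TM7SF2 was lower in both, at -0.62 and -0.54.

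The 5 genes lower with PTK6 beside PSPC1 were MYLIP at -0.66, FDPS at -0.63, TM7SF2 at -0.62, FDFT1 at -0.61 and CYP51A1, which removes a methyl group from lanosterol, at -0.60. All were close to the limit, and CYP51A1 and TM7SF2 rested on 99 and 56 reads in PSPC1/PTK6. The 3 higher genes were ABCA1 at 0.91, STARD4 at 0.80 and IDI1. With FPKM as deposited, 4 genes were higher and 1 lower, with the median of all genes at 0.20 and of the synthesis genes at -0.17. The number of synthesis genes lower with PTK6 beside PSPC1 was 15 to 18 of 19 over the 5 scalings, and the number higher beside PSPC1-Y523F was 17 or 18. The level of PSPC1 was also higher with PTK6 in both pairs, at 26.4 against 7.01 FPKM and at 70.9 against 2.28 FPKM, and their part in these differences was not tested. The SREBP control genes did not move as one with PTK6. SREBF2 was at -0.44 beside PSPC1 and 0.43 beside PSPC1-Y523F, INSIG1 at -0.12 and 0.50, SREBF1 at -0.26 and -0.33 and SCAP at -0.37 and -0.30.

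In Mahlavu, the library labelled PSPC1-CT131 had several sterol genes below mock and SREBF1 above it. Of the 30 genes, 6 were at least 1.5-fold lower, against 12.3% of all genes, and 1 was higher, against 11.2% of all genes. The median of the synthesis genes was -0.11 and that of all genes 0.01. In the order mock, PSPC1-CT131 and Mut-NLS-CT131 of the labels, HMGCS1 had 129, 51.1 and 160 FPKM, with a difference of -1.30 between PSPC1-CT131 and mock. IDI1 had 141, 60.5 and 199 FPKM and a difference of -1.20. SC5D at -0.91, MSMO1 at -0.72, STARD4 at -0.67 and SQLE at -0.62 made up the rest. SREBF1 had 357, 769 and 267 FPKM and a difference of 1.019, so it and HMGCS1 differed from mock in opposite directions. With length and GC content taken out, 2 genes were higher and 2 were lower, HMGCS1 at -0.95 and IDI1 at -0.88, while TMM-scaled counts gave 3 higher and 4 lower.

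The library labelled Mut-NLS-CT131 had 4 of 30 genes at least 1.5-fold higher than mock, against 11.1% of all genes, and 0 lower, against 11.3% of all genes. In the same order of labels STARD4 had 48.3, 26.5 and 97.8 FPKM, a difference of 1.13 between Mut-NLS-CT131 and mock. NPC1 had 169, 171 and 354 FPKM, also a difference of 1.13, so it was high in that library alone. MSMO1 had 158, 99.2 and 306 FPKM and a difference of 0.99, and INSIG1 had 186, 177 and 318 FPKM and a difference of 0.78. The synthesis genes as a group had a median of 0.09, against 0.003 for all genes, and 10 of the 19 were above 0.

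Set against each other, the library labelled PSPC1-CT131 had 8 of 30 genes at least 1.5-fold lower than the library labelled Mut-NLS-CT131, against 15.2% of all genes, and 3 higher, against 14.9% of all genes. At 2-fold, 5 were lower, against 4.59% of all genes, namely STARD4 at -1.80, IDI1 at -1.74, MSMO1 at -1.71, HMGCS1 at -1.64 and NPC1 at -1.16. Under every setting tried these 5 stayed at or below -0.91. INSIG1 at -0.93, SQLE at -0.89 and SC5D at -0.80 were also lower. SREBF1 at 1.498, PMVK at 0.67 and MVK at 0.62 were higher. FPKM as deposited gave 1 higher and 11 lower.

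GC content moved with these differences. Across all 12402 genes with a GC value, Spearman's rho between GC content of the longest transcript and the difference of the library labelled PSPC1-CT131 from mock was 0.57, and it was 0.58 over the 30 genes here. Between both transfectants it was 0.57 over all genes and 0.74 over the 30. The 4 genes that differed most, STARD4, MSMO1, HMGCS1 and IDI1, have transcripts of 34.2% to 41.1% GC, and SREBF1 has 62.8%. With length and GC content taken out by a quadratic fit over all genes, STARD4 was at -1.01, IDI1 at -1.38, MSMO1 at -1.18, HMGCS1 at -1.23 and SREBF1 at 1.09 between both transfectants. In PSPC1/PTK6 against PSPC1 rho was -0.31 over all genes and -0.60 over the 30, and with PTK6 beside PSPC1-Y523F it was -0.02 and -0.11. Against mock, it was -0.09 and -0.51 for PSPC1/PTK6, and -0.10 and -0.49 for the library labelled Mut-NLS-CT131. For the other SK-hep1 libraries against mock, rho was larger over all genes than over the 30. It was 0.18 and -0.01 for PSPC1, 0.25 and 0.20 for PSPC1-Y523F, and 0.25 and 0.02 for PSPC1-Y523F/PTK6. Genes are not independent replicates, and these values describe pairs of libraries.

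In Huh-7, the HGF and untreated libraries were close for these genes, as they were for most genes. All 31 genes passed the filter, 0 were at least 1.5-fold higher, against 1.81% of all genes, and 0 were lower, against 1.45% of all genes. The median of the synthesis genes was 0.01 and that of all genes -0.002. HMGCS1 had 998 FPKM untreated and 1169 FPKM with HGF, a difference of 0.20, the largest of the synthesis genes. FDPS followed with 145 and 158 FPKM, and MSMO1 had 472 and 520 FPKM. ABCG1 had 2.67 FPKM, with a 95% Wilson interval of 2.21 to 3.21 for counting error, and 4.15 FPKM, with an interval of 3.56 to 4.85, a difference of 0.47. The untreated and HGF libraries differed by at most 0.47 for any of the 31. The deposited FPKM of ABCG1 alone were 1.56-fold apart, and adding 1 to each value brought this gene below 1.5-fold.

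A further list of 52 genes covers the isoprenoid branch, SREBP processing, sterol transport, other uptake receptors, liver X receptors and esters. Of 44 that passed the filter, 5 were at least 1.5-fold higher with PSPC1, against 9.57% of all genes, and 2 lower, against 8.66% of all genes, with a median of -0.004. NR1H3, a liver X receptor, was at 1.021 with PSPC1 and 1.12 with PSPC1-Y523F/PTK6. GRAMD1A, which moves sterol from the plasma membrane to the endoplasmic reticulum, was at 1.10. PDSS1, which makes the tail of coenzyme Q, was at -1.24 with PSPC1 and -1.13 with PSPC1/PTK6. With PSPC1-Y523F 5 were higher and 1 lower, each against 9.33% of all genes, and the related GRAMD1B was at 1.09.

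With PTK6 beside PSPC1-Y523F, 4 of the 44 were higher, against 10.4% of all genes, and 5 lower, against 9.28% of all genes, with a median of -0.07, whereas the synthesis median there was 0.62. The lipoprotein receptor gene LRP8 was at -1.15 and GRAMD1B at -1.02. With PTK6 beside PSPC1, 0 were higher, against 8.09% of all genes, and 3 lower, against 7.34% of all genes. In Mahlavu, the library labelled Mut-NLS-CT131 had 11 of 44 higher than mock, against 11.1% of all genes, and 3 lower, against 11.3% of all genes. GRAMD1B was at 1.61, RNF145, a ubiquitin ligase of the sterol response, at 1.13, the sterol carrier OSBP at 1.06 and PDSS1 at -1.12. The library labelled PSPC1-CT131 had 5 of 43 higher, against 11.2% of all genes, and 4 lower, against 12.3% of all genes, with GRAMD1B at 1.31, SCP2, a sterol carrier, at -1.02 and OSBPL9 at -1.004. Between both transfectants, OSBP was at -1.07, with 2 of 44 genes higher, against 14.9% of all genes, and 8 lower, against 15.2% of all genes. HGF gave 0 of 46 past 1.5-fold in either direction, against 1.81% of all genes higher and 1.45% lower.

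Reads on bases shared with a neighbour could be counted into some of these genes or lost from them, since the library kit named in the labels does not keep strand. Overlapping genes share 18.6% of the exonic bases of FDPS, 15.0% of HMGCS1 and 14.8% of IDI1, whose partner is IDI2-AS1. The other 28 genes share at most 9.23%. These shares rest on GENCODE 29, where the positions of IDI1 and CYP51A1 differ from those in the deposited data. Pseudogene copies of FDPS, IDI1 and CYP51A1 had at most 5 reads in any library. The lowest depths among genes that passed in SK-hep1 were those of TM7SF2, with 56 to 81 reads, and CYP51A1, with 64 to 126 reads, so their differences are the least precise.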

How the data were processed

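The RNA of 10 libraries was sequenced, with 1 library for each condition. For SK-hep1 and Mahlavu the authors deposited unnormalized read counts per gene together with the FPKM that follow from them, and for Huh-7 FPKM alone. The submitters' processing notes name TopHat2 2.0, HTSeq 0.6.1, edgeR and GRCh38.p12, whereas the study's methods name another build, and poly-A selection in the labels stands against rRNA depletion in the methods. Library totals were 15245935 to 24278662 reads, those of Huh-7 recovered from FPKM and gene lengths. FPKM were quantile normalized over the 8 SK-hep1 and Mahlavu libraries and over both Huh-7 libraries, and 1 was added before log2. Genes averaging 1 FPKM or more in the compared libraries were kept and called at 1.5-fold. The text names all 31 genes, of the 52 others those at least 2-fold different, except 1 that is not reported here, and PSPC1 and PTK6, where a mean of at least 20 reads was reached. The 31 genes and the other lists were chosen with earlier results of these data known. No test and no p-value was possible. The alternatives tried were 0.1 or 5 added, FPKM as deposited or scaled to the same sum, TMM-scaled counts (edgeR 4.0.16), no filter, and length and GC content (GENCODE 29) taken out. The calculations were tested on simulated data. Python 3.11.15, numpy 2.4.6, pandas 2.3.3, scipy 1.17.1 and R 4.3.3 were used.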

Additional observations from a re-analysis of the deposited data

Results flagged for a closer look

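The difference between the libraries with and without PTK6 was of opposite sign for wild-type PSPC1 and for PSPC1-Y523F, in SK-hep1. Over the 19 synthesis genes, the median log2 fold change was -0.39 with PTK6 beside PSPC1 and 0.62 with PTK6 beside PSPC1-Y523F, and the latter minus the former was 1.018. At least 1.5-fold in opposite directions were FDPS, for which the latter minus the former was 1.83, FDFT1, for which it was 1.46, and CYP51A1, for which it was 1.19. Taken singly, 7.34% of all genes were at least 1.5-fold lower with PTK6 beside PSPC1, and 10.4% higher beside PSPC1-Y523F. The share of all genes that met both limits was not computed, so the number of genes named cannot be set against it. These differences were not tested, since each of the 4 conditions had 1 library. With FPKM as deposited or scaled to the same sum, FDPS was within 1.5-fold beside PSPC1, and CYP51A1, read at 64 to 126 reads in SK-hep1, was within it in both pairs. The libraries without PTK6 differed from each other, with a synthesis median of -0.52 for PSPC1-Y523F against PSPC1, and this enters the values above. The level of PSPC1 also differed between the 4 libraries, and its part was not tested.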

How the results depend on the processing

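A median was checked for reversal only if past 1.5-fold. Only the 0.62 of PSPC1-Y523F/PTK6 against PSPC1-Y523F was, and it kept its sign. Counts were compared as higher and lower genes together. The library labelled PSPC1-CT131, with 1 higher and 6 lower, and 3 and 4 with TMM-scaled counts, was therefore scored as unmoved. The 18 genes without overlap between SK-hep1 and Mahlavu stayed within 1.5 times that number under all 3 scalings tried. Against mock or untreated, 6 of 49 recomputed counts of genes past 1.5-fold and 8 of 49 recomputed synthesis medians moved, counts by over 1.5 times and medians by over 0.1. With 5 added, the PSPC1 median was 0.24 and PSPC1-Y523F/PTK6 had 3 genes. With 0.1 added, HGF had 1 gene, ABCG1. FPKM as deposited gave 5 genes for PSPC1-Y523F and a median of 0.028 for PSPC1/PTK6, opposite in sign to the -0.09 reported, and of -0.35 for the library labelled PSPC1-CT131. Medians of these 2 comparisons were 0.021 and -0.36 with FPKM scaled to the same sum. In these comparisons all genes also shifted with FPKM as deposited, by a median of 0.15 and -0.24. TMM-scaled counts gave 9 genes for PSPC1-Y523F/PTK6, and 7 genes and a median of 0.23 for the library labelled Mut-NLS-CT131. With length and GC content taken out, PSPC1-Y523F/PTK6 had a median of 0.38, and the library labelled PSPC1-CT131 had 4 genes and a median of -0.26. Between transfectants, 3 of 28 counts and 7 of 28 medians moved, with no change of sign. The causes were not tested. No paired analysis was possible because each condition had 1 library, and leaving out a library was not possible for the same reason. Depth limits TM7SF2, CYP51A1 and ABCG1.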
